A study of Homo sapiens with 6 samples.

Results

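Replication-dependent histone genes encode the H1, H2A, H2B, H3 and H4 proteins that package newly copied DNA. The genes were taken by an annotation rule: every protein-coding gene of GENCODE release 29 whose symbol begins with HIST1H, HIST2H, HIST3H or HIST4H. The rule was chosen with earlier results of these data known. There were 71 such genes, and 57 of them had a row among the 18768 genes of the deposited count table. The members comprised 6 H1, 17 H2A, 18 H2B, 15 H3 and 15 H4 genes, of which 5, 14, 16, 12 and 10 were in the table. A further 19 histone pseudogenes were left out by the rule, 7 of them in the table.

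The cells carried the label HCT116, an established human colorectal cancer line, and were transfected with a negative control siRNA (siRNA-NC) or with an siRNA specific for the long non-coding RNA AC010789.1 (si-AC010789.1). Each group had 3 libraries of polyadenylated RNA, read on both ends, and no other treatment separated the groups. The labels name no separate cultures, while the study describes its repeats as cells of different generations. It also reports substantial differences within its groups. The p-values measure the spread between these libraries. AC010789.1 itself has 1 annotated transcript and no row in the table, so the knockdown, which the study states it verified for the sequenced samples, could not be checked in these counts. The libraries held 11277222 to 13443866 counts, of which 3230 to 3860 fell on the histone genes, or 0.0251% to 0.0303%. The histone results therefore rest on few counts, and 30 of the 57 genes had under 100 counts over all 6 libraries.

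The labelled cell type was compared with its markers. Of 12 colorectal epithelial markers, CDX1, CDX2, GPA33, KRT19, KRT20 and VIL1 had no row in the table. EPCAM had 35 to 68 counts per library and CDH1 had 8 to 13, whereas the keratins KRT8 and KRT18 had mean levels of 718 and 395 CPM in siRNA-NC (CPM, counts scaled to 1000000 counts a library). CDH17 had at most 2 counts and LGR5 at most 3. Of 14 markers of other cell types 7 were in the table, with summed levels of 66.4 to 76.9 CPM with siRNA-NC and 67.0 to 74.1 CPM with si-AC010789.1. Most of that sum was the fibroblast collagen COL1A1, at 43.3 and 44.4 CPM, and PTPRC, CD3E, PECAM1, ALB, HBB, COL1A2 and LUM had no row. EPCAM, CDH1 and the absent markers go against the epithelial label while the keratins do not, and the libraries are called by their labels here.

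Histone proteins form the spool around which DNA is wound, with H2A, H2B, H3 and H4 in the core and the linker histone H1 outside it. Transcription of these genes rises as cells enter S phase, under the coactivator NPAT. Their mRNAs usually carry no poly(A) tail: they end just after a short stem-loop, which is bound by SLBP and cut with the help of the U7 small nuclear ribonucleoprotein. Some of the genes also give longer, polyadenylated mRNAs that run past the stem-loop. A library of polyadenylated RNA holds mainly those longer forms, so the levels below are not a measure of all histone mRNA.

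The stem-loop is shown because it decides which annotated transcripts count as long forms. A stem of 6 bases beginning with 2 G, a loop of 4 bases beginning with 2 T, and the complementary stem were searched for in the GENCODE transcript sequences, on the transcript strand. This pattern was in 43 of the 100 member transcripts and in 352 of all 206694 transcripts (0.170%). The members held 4 distinct versions of these 16 bases. Each is printed 5′ to 3′ from the transcript that held most counts, with stem and loop in capitals and 5 bases on either side.
HIST2H2BE: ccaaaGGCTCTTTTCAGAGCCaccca
HIST1H4H: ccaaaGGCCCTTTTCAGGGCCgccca
HIST1H3G: aaaaaGGCTCTTTTAAGAGCCgccta
HIST2H4A: ccaaaGGCCCTTTTTAGGGCCgacca

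The version of HIST2H2BE was shared by 17 genes, 6 of them H2A, 8 H2B and 3 H3. The version of HIST1H4H was found in 5 genes and that of HIST2H4A in 3, all of them H4. The version of HIST1H3G was found in 5 genes, 3 of them H2B and 2 H3. In GRCh38 these stretches of 26 bases lie on chromosome 1 from 149886183 to 149886208 (minus strand, HIST2H2BE), on chromosome 6 from 26285126 to 26285151 (minus strand, HIST1H4H), on chromosome 6 from 26270918 to 26270943 (minus strand, HIST1H3G) and on chromosome 1 from 149833027 to 149833052 (plus strand, HIST2H4A). Each lies in exon 1 of its transcript, in annotated UTR.

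The genes also shared position and promoter letters. Cluster HIST1 on chromosome 6 held 55 of them between 25726132 and 27893843, HIST2 on chromosome 1 held 12, HIST3 on chromosome 1 held 3, and HIST4 was a lone H4 gene on chromosome 12. RefSeq promoter windows, from 250 bases before to 50 after the start, matched 66 members. On either strand, the octamer ATTTGCAT was in 11 of 16 H2A and 14 of 18 H2B windows and in 0 of the H1, H3 and H4 windows, against 1.77% of all 35116 windows. CCAAT was in every H1, H2A, H2B and H3 window and in 3 of 13 H4 windows, against 34.6% of all. TATAAA was in 44 of the 66 windows, against 11.5% of all. There were 11 pairs of overlapping H2A and H2B windows, so these matches are not independent, and they describe letters rather than bound sites.

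Summed over all 57 genes, the histone level was 302, 251 and 289 CPM with siRNA-NC and 295, 258 and 300.5 CPM with si-AC010789.1. CPM were scaled by edgeR's TMM factors, which adjust library totals for composition. The group means were 281 ± 26.3 CPM and 284 ± 23.2 CPM (SD, n = 3 each), a log2 ratio of 0.02, and the groups overlapped. The library numbered 2 was the lowest of its group in both. A sum cannot tell fewer cells making histone mRNA from less of it per cell.

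H2B genes held the most counts, 48.5% of the total, and summed to 145, 121 and 135 CPM with siRNA-NC and 144, 130 and 146 CPM with si-AC010789.1. H4 genes held 20.6% and summed to 69.4, 49.6 and 65.7 CPM with siRNA-NC and 59.2, 42.2 and 63.3 CPM with si-AC010789.1. H2A genes held 19.7% and summed to 51.0, 51.2 and 56.4 CPM with siRNA-NC and 59.0, 56.2 and 59.0 CPM with si-AC010789.1. The H2A sums came closest to separating, with the highest control at 56.4 and the lowest knockdown at 56.2 CPM. H3 genes held 6.10% of the counts, with means of 17.9 ± 3.67 and 16.7 ± 1.44 CPM, and H1 genes held 5.16%, with means of 14.8 ± 0.178 and 14.3 ± 0.597 CPM (SD, n = 3 each). In every class the groups overlapped. These shares are of counts, not scaled by transcript length. Per kb of transcript, H2A summed to a mean of 61.7 CPM per kb over all libraries and H4 to 47.6. H1 summed to 22.6 and H3 to 14.9 CPM per kb.

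**Figure D1:**
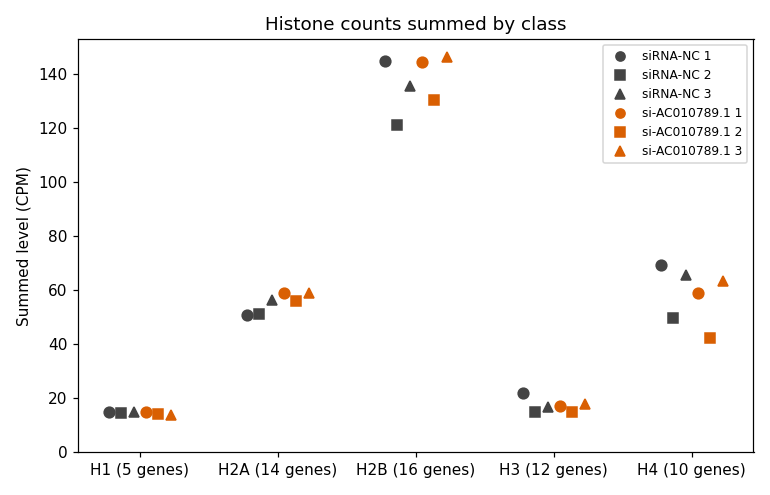
Summed level of each histone class in CPM (vertical axis, from 0) in each of the 6 libraries (grey siRNA-NC, orange si-AC010789.1, marker shape for the replicate number). H2B sums lie between 121 and 146 CPM, and the groups overlap in every class.

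Of the 57 genes, 34 had enough counts to be tested (edgeR's filterByExpr), namely 1 H1, 9 H2A, 13 H2B, 4 H3 and 7 H4 genes. The other 23 had 3 to 48 counts over all libraries. In edgeR's quasi-likelihood test, with p-values adjusted over all 13764 genes tested, 0 of the 34 passed an adjusted p of 0.05, against 0.944% of all genes. The lowest adjusted p was 0.482, and DESeq2 likewise called 0, though it gave no adjusted p for 25 of the 34. At an unadjusted p under 0.05 there were 0 histone genes by either tool, against 17.2% of all genes in edgeR. The study's stated cutoffs, an unadjusted p under 0.05 with an absolute log2 fold change over 1, were applied here to edgeR results. There were also 0, against 0.777% of all genes. The study itself used Cuffdiff and describes excluding genes that differed significantly within a group, which was not done here.

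None of the 34 genes had groups that did not overlap, whereas 12.2% of all genes were higher and 12.9% lower in every si-AC010789.1 library than in any siRNA-NC library. An exact permutation test of 3 against 3 libraries cannot give a two-sided p below 0.1. The fitted log2 fold changes ran from -0.32 to 0.76, with 19 above and 15 below 0. Their median was 0.03, against 0.00 over all genes tested. The 95% interval of 25 genes lay wholly within a doubling or halving (log2 of -1 to 1), while that of HIST1H2AI, HIST1H2AK, HIST1H2BE, HIST1H2BF, HIST1H2BJ, HIST1H2BO, HIST1H4J, HIST2H3A and HIST4H4 reached past it. The half-widths of the intervals ran from 0.21 to 1.35 on the log2 scale. Differences under about that size were not detectable even before adjustment of the p-values. With the adjustment over all genes tested, larger differences could be missed too. CCNA2, described below, had a log2 fold change of -0.30 (95% interval -0.42 to -0.18) and still did not pass (edgeR adjusted p = 0.064). The median coefficient of variation over the 6 libraries was 19.9% for the tested histone genes and 12.2% for all genes tested.

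**Figure D2:**
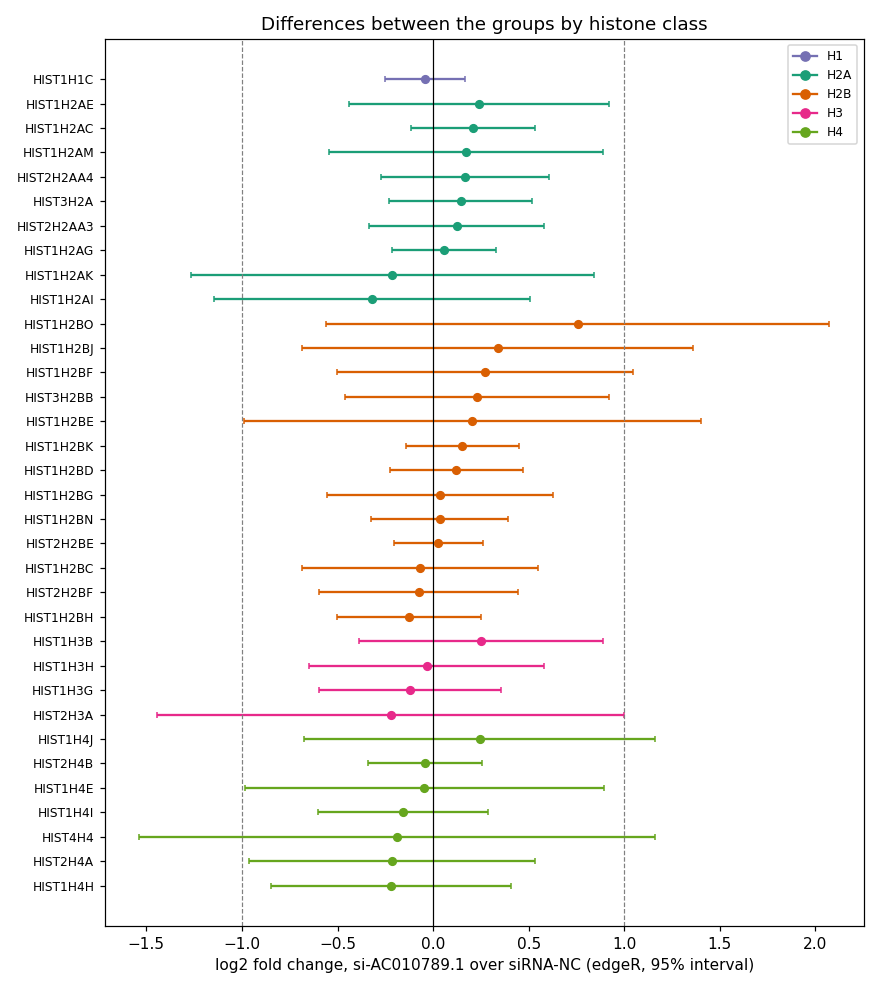
Fitted log2 fold change of the 34 tested histone genes (horizontal axis, si-AC010789.1 over siRNA-NC, bars for the 95% interval, dashed lines at -1 and 1, colours for the class), ordered within class. All 34 intervals hold 0, and the widest are those of HIST4H4 and HIST1H2BO.

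The histone counts were concentrated in few genes. HIST1H2BK, HIST2H4A and HIST2H2BE held 37.7% of the histone counts, and the 10 highest held 72.9%. Per kb of transcript, HIST1H2BK stood highest at 100.3 ± 12.9 CPM per kb with siRNA-NC and 111 ± 10.7 with si-AC010789.1 (SD, n = 3 each). HIST2H4A followed at 29.3 ± 6.76 and 24.9 ± 7.69 CPM per kb, and HIST1H1C at 21.7 ± 0.422 and 21.1 ± 0.81. These are levels per kb of the annotated transcripts, and the model of HIST1H2BK covers only its 381 coding bases, so its length, and with it its level per kb, is uncertain.

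HIST1H2BK, an H2B gene at chromosome 6, 27146418 to 27146798 (minus strand), was measured at 41.5, 32.5 and 40.5 CPM with siRNA-NC and 44.1, 37.8 and 45.5 CPM with si-AC010789.1. The groups overlapped, with a log2 fold change of 0.15 (SE 0.12, 95% interval -0.14 to 0.45, edgeR adjusted p = 0.583). Of its windows of 50 bases, 74.1% also occur in some other gene. The share was 61.4% for the H2B gene H2BFS and 22.6% for other members, so its reads could be split between the genes.

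HIST2H4A, an H4 gene at chromosome 1, 149832659 to 149839767 (plus strand), was the most variable of the abundant genes. Its levels were 47.8, 28.2 and 42.9 CPM with siRNA-NC and 39.3, 20.5 and 42.7 CPM with si-AC010789.1. The libraries numbered 2 were the low ones in both groups, and the log2 fold change was -0.22 (SE 0.31, 95% interval -0.96 to 0.53, edgeR adjusted p = 0.778). Without si-AC010789.1 replicate 2 the log2 fold change was 0.051. Its neighbour HIST2H4B shares 97.2% of its windows with it, and was steady at 9.3, 9.34 and 9.74 CPM with siRNA-NC and 8.03, 9.97 and 9.54 CPM with si-AC010789.1. Summed, the pair stood at 57.1, 37.6 and 52.7 CPM against 47.3, 30.5 and 52.2 CPM, which again overlapped.

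HIST2H2BE, an H2B gene of the HIST2 cluster, had a coefficient of variation of 6.96% over the 6 libraries, at 30.5, 28.2 and 28.8 CPM with siRNA-NC and 26.7, 32.6 and 29.8 CPM with si-AC010789.1. Its log2 fold change was 0.03 (95% interval -0.21 to 0.26). HIST1H1C, the H1.2 linker histone and the only H1 gene tested, varied least of all the tested members, with a coefficient of variation of 3.15%, at 13.99, 13.63 and 14.16 CPM with siRNA-NC and 14.05, 13.01 and 13.51 CPM with si-AC010789.1. Its log2 fold change was -0.04 (95% interval -0.25 to 0.17).

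Of the other abundant H2B genes, HIST1H2BH was at 29.5, 20.3 and 23.4 CPM with siRNA-NC and 24.3, 19.9 and 22.8 CPM with si-AC010789.1. HIST1H2BD was at 13.2, 11.7 and 12.9 CPM with siRNA-NC and 15.4, 11.2 and 14.6 CPM with si-AC010789.1. Both genes overlapped between the groups, with log2 fold changes of -0.12 and 0.12.

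Among the H2A genes, HIST1H2AC had the lowest unadjusted p of all members. It was at 11.4, 12.2 and 15.1 CPM with siRNA-NC and 16.2, 14.4 and 14.2 CPM with si-AC010789.1. Only siRNA-NC 3 reached the knockdown values, and the log2 fold change was 0.21 (SE 0.13, 95% interval -0.11 to 0.53, edgeR adjusted p = 0.482). HIST1H2AG was at 15.05, 16.3 and 14.2 CPM with siRNA-NC and 17.7, 14.3 and 15.4 CPM with si-AC010789.1, or a log2 fold change of 0.06. HIST2H2AA4 was at 9.12, 8.06 and 11.9 CPM with siRNA-NC and 9.34, 11.2 and 12.1 CPM with si-AC010789.1, or a log2 fold change of 0.17. HIST2H2AA4 shares 97.1% of its windows with HIST2H2AA3, and the pair summed to means of 12.3 ± 1.99 and 13.7 ± 1.58 CPM (SD, n = 3 each).

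**Figure D3:**
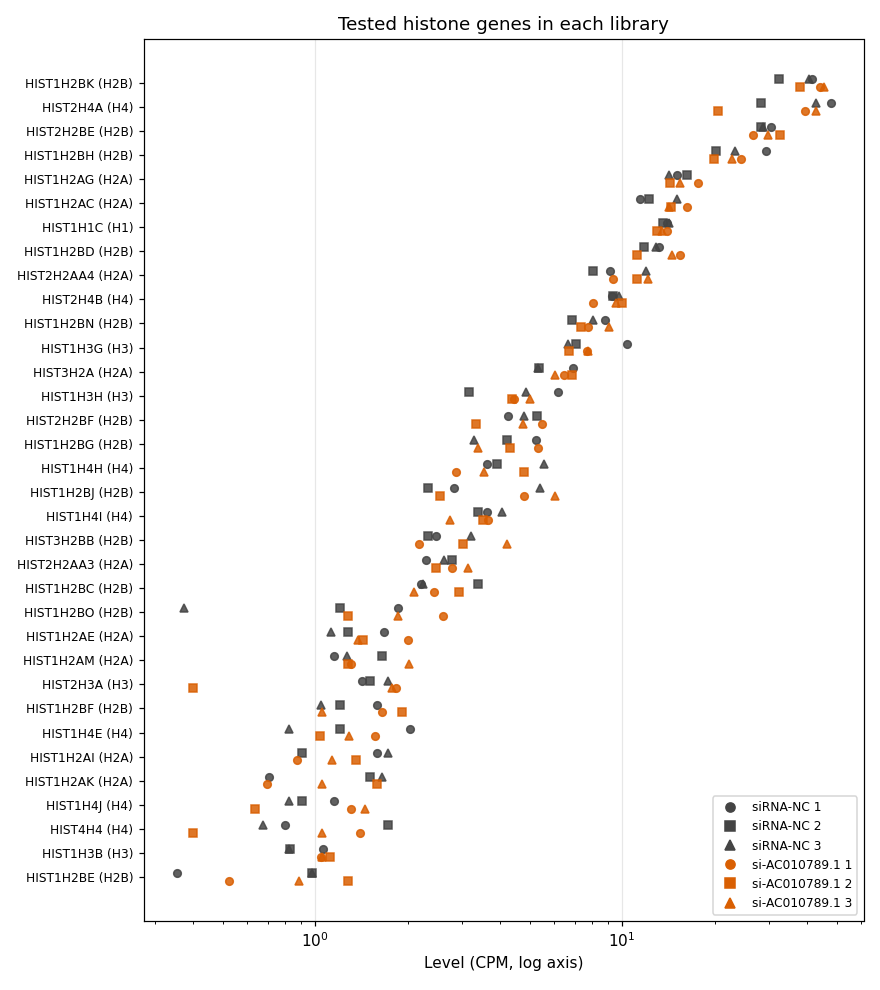
Level of the 34 tested histone genes in CPM (horizontal axis, log scale) in each of the 6 libraries, ordered by mean level, with the class in brackets (grey siRNA-NC, orange si-AC010789.1). The groups overlap for each gene, and HIST1H2BO at 0.375 CPM in siRNA-NC 3 lies apart from its other values.

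The genes with the largest and smallest fitted changes had at most 304 counts over all libraries, the total of HIST1H4H, with the exception of HIST2H4A. HIST1H2BO, an H2B gene with 111 counts in all, had the largest change: 1.86, 1.21 and 0.375 CPM with siRNA-NC and 2.62, 1.28 and 1.86 CPM with si-AC010789.1. Its log2 fold change was 0.76 (SE 0.55, 95% interval -0.56 to 2.07, edgeR adjusted p = 0.537), and siRNA-NC 3, with 5 counts, was the low library. With 1 library left out the log2 fold change ranged from 0.32, without siRNA-NC replicate 3, to 1.27, without siRNA-NC replicate 1.

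HIST1H2BJ was at 2.83, 2.33 and 5.4 CPM with siRNA-NC and 4.8, 2.55 and 6.07 CPM with si-AC010789.1, with a log2 fold change of 0.34. HIST1H2BF was at 1.59, 1.21 and 1.05 CPM with siRNA-NC and 1.66, 1.92 and 1.05 CPM with si-AC010789.1, with a log2 fold change of 0.27. The H3 gene HIST1H3B was at 1.06, 0.828 and 0.824 CPM with siRNA-NC and 1.05, 1.12 and 1.05 CPM with si-AC010789.1, with a log2 fold change of 0.25. In all of these the lowest si-AC010789.1 library lay at or below the highest siRNA-NC library.

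The H4 gene HIST1H4J was at 1.15, 0.904 and 0.824 CPM with siRNA-NC and 1.31, 0.638 and 1.46 CPM with si-AC010789.1, or a log2 fold change of 0.24. It shares 81.2% of its windows with HIST1H4K, and their summed means were 1.26 ± 0.364 and 1.77 ± 0.358 CPM (SD, n = 3 each). The groups overlapped in this sum as well.

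At the other end, HIST1H2AI was at 1.59, 0.904 and 1.72 CPM with siRNA-NC and 0.872, 1.36 and 1.13 CPM with si-AC010789.1, with a log2 fold change of -0.32. HIST1H4H was at 3.63, 3.92 and 5.55 CPM with siRNA-NC and 2.88, 4.79 and 3.56 CPM with si-AC010789.1, with a log2 fold change of -0.22. HIST1H2AK was at 0.708, 1.51 and 1.65 CPM with siRNA-NC and 0.698, 1.6 and 1.05 CPM with si-AC010789.1, with a log2 fold change of -0.21. The groups overlapped in each.

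HIST2H3A, an H3 gene whose windows all recur in HIST2H3C, was at 1.42, 1.51 and 1.72 CPM with siRNA-NC and 1.83, 0.399 and 1.78 CPM with si-AC010789.1. The library si-AC010789.1 replicate 2, with 5 counts, lay apart from the others, and the log2 fold change of -0.22 became 0.22 without it. Summed with HIST2H3C, the levels were 2.12, 1.73 and 2.02 CPM with siRNA-NC and 1.83, 0.638 and 2.02 CPM with si-AC010789.1, and the groups overlapped.

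The remaining 15 tested genes had log2 fold changes between -0.19 and 0.24. They were HIST1H2AE, HIST1H2AM, HIST2H2AA3 and HIST3H2A of the H2A class, HIST1H2BC, HIST1H2BE, HIST1H2BG, HIST1H2BN, HIST2H2BF and HIST3H2BB of the H2B class, HIST1H3G and HIST1H3H of the H3 class, and HIST1H4E, HIST1H4I and HIST4H4 of the H4 class. By class, 7 of 9 H2A and 10 of 13 H2B genes had a value above 0, against 49.9% of all genes tested. In turn, 6 of 7 H4 and 3 of 4 H3 genes had a value below 0. The class medians were 0.14 (H2A), 0.12 (H2B), -0.16 (H4) and -0.08 (H3). No single gene passed the test, and the class counts and medians were not tested. Members of a class also share reads and neighbours. In the annotation, HIST1H2BN overlaps HIST1H2AK and HIST1H2AL, HIST1H2AM overlaps HIST1H3J, HIST2H4A overlaps HIST2H3C, and HIST2H4B overlaps HIST2H3A. HIST1H2AD and HIST1H3D overlap AL031777.3, HIST2H2BF overlaps FCGR1A, and HIST1H2BD and HIST1H2BE overlap AL353759.1 on the opposite strand. The library kit does not mark strand, so these counts are uncertain.

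The 23 genes in the table that were not tested had mean levels of 0.0383 to 0.644 CPM. Over all 57 genes in the table, 12 had a count of 0 in some library, where 3 counts, or 0.223 to 0.266 CPM, is the limit that a count of 0 allows, for counting error only. The 14 members with no row were HIST1H1A, HIST1H2AA, HIST1H2AB, HIST1H2BA, HIST1H2BB, HIST1H3I, HIST1H4A, HIST1H4B, HIST1H4F, HIST1H4G, HIST1H4L, HIST2H2AB, HIST2H3PS2 and HIST3H3. HIST1H1T, HIST1H2AA and HIST1H2BA are known as testis histones, and HIST1H1T had 3 counts in all. No row of the deposited table had a total under 3 counts. A gene with no row, here or among the markers above, may thus have had fewer reads rather than none.

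Counts were then set by the form of the annotated transcript that held them. Of the 79 member transcripts in the table, 30 ran more than 100 bases past the stem-loop and 9 ended within 100 bases of it. Another 24 consisted of the coding part only, and 16 had other ends and no match to the searched pattern. A missing match is not proof that the stem-loop is absent. These 16 include the HIST1H2AG transcript of 1 exon and 2250 bases, with a poly(A) signal and 1149 counts. The share past the stem-loop can therefore miss long forms. A poly(A) signal (AATAAA or ATTAAA) lay in the last 40 bases of 19 of the 30 transcripts that ran past the stem-loop and of 4 of the 9 that ended at it, against 42.9% of all annotated protein-coding transcripts.

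Transcripts that ran past the stem-loop held 57.6%, 54.1% and 54.6% of the histone counts with siRNA-NC and 51.8%, 52.2% and 52.3% with si-AC010789.1. The means were 55.4% ± 1.92 and 52.1% ± 0.26 (SD, n = 3 each), and the 3 knockdown shares lay below the 3 control shares. Each share has a Wilson 95% interval of at most 1.72 percentage points on either side, which covers counting error only. Coding-part transcripts held 21.4%, 22.4% and 22.5% with siRNA-NC and 23.9%, 24.1% and 23.8% with si-AC010789.1, so the groups were apart in the opposite direction. These shares sum to a fixed total and were singled out after they were seen, so no test is given.

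Leaving out the gene with most counts in each of these forms made the groups overlap, though a difference of the means remained. Without HIST2H4A, the shares past the stem-loop were 49.7%, 48.3% and 46.6% with siRNA-NC and 44.4%, 48.1% and 44.4% with si-AC010789.1. The groups then overlapped, while the difference of the means went from -3.33 to -2.58 percentage points. HIST2H4B, which shares 97.2% of its windows with HIST2H4A, was kept in. Without HIST1H2BK, the coding-part shares were 8.87%, 10.9% and 9.82% with siRNA-NC and 10.51%, 11.03% and 10.18% with si-AC010789.1. The groups overlapped too, and the difference went from 1.83 to 0.72 percentage points. Transcripts ending at the stem-loop held 5.72%, 6.38% and 6.63% with siRNA-NC and 6.19%, 7.15% and 6.76% with si-AC010789.1. The share in all other transcripts, with those lacking a match, was thus 93.8% ± 0.474 and 93.3% ± 0.486 (SD, n = 3 each). This difference was within the spread of the libraries.

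**Figure D4:**
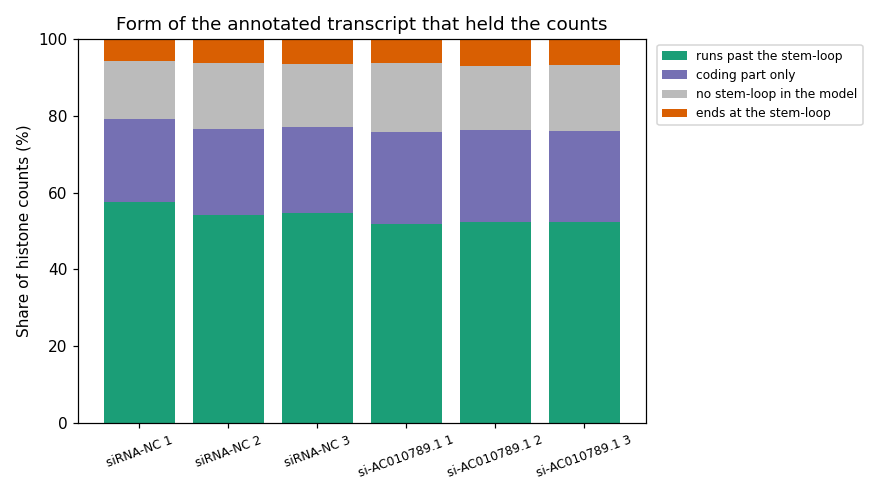
Share of histone counts in percent (vertical axis, from 0) held by each form of annotated transcript in the 6 libraries. Transcripts that run past the stem-loop hold 51.8% to 57.6%, and those that end at it hold 5.72% to 7.15%.

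Transcripts annotated as targets of nonsense-mediated decay, 10 of the 79, held 16.01% to 21.9% of the histone counts. Most of these were counts of HIST2H4A and HIST2H4B. How reads were divided between overlapping transcripts is not given in the sources used here, so the transcript counts carry an error that the replicates do not show in full.

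A fit of the same kind on transcript rows tested 40 transcripts of 33 histone genes among 44297. None passed an adjusted p of 0.05, against 0.0135% of all transcripts, and DESeq2 called 0 as well. At an unadjusted p under 0.05 there was 1 by either tool, against 5.73% of all in edgeR. Of the 40, 2 had groups that did not overlap, both lower in si-AC010789.1, where 7.1% of all transcripts were lower and 6.88% higher in that way.

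The transcript with an unadjusted p under 0.05 was ENST00000377791 of HIST1H2AC. This transcript thereby also met the study's stated cutoffs, as applied to edgeR results. The share of all transcripts at those cutoffs is not given here. It had 22, 15 and 38 counts with siRNA-NC and 10, 10 and 4 with si-AC010789.1, with a log2 fold change of -1.57 (SE 0.55, 95% interval -2.95 to -0.20, edgeR adjusted p = 0.819). The other HIST1H2AC transcripts had 61, 94 and 81 against 103, 103 and 88 counts (ENST00000314088) and 46, 53 and 83 against 73, 68 and 84 counts (ENST00000602637). ENST00000377791 thus held 17.1%, 9.26% and 18.8% of the gene's counts with siRNA-NC and 5.38%, 5.52% and 2.27% with si-AC010789.1. On chromosome 6, ENST00000377791 and ENST00000314088 both start at 26124145, and they end at 26139102 and 26139116. How reads were assigned to the one or the other is therefore uncertain.

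The other transcript apart was ENST00000614272 of HIST2H4A, with 76, 85 and 99 counts with siRNA-NC and 57, 73 and 75 with si-AC010789.1 (log2 fold change -0.30, edgeR adjusted p = 0.973). The transcript of most HIST2H4A counts, ENST00000618193, was lowest in the libraries numbered 2, with 454, 280 and 464 counts with siRNA-NC and 386, 178 and 448 with si-AC010789.1. Its share of the gene's counts was lowest in those libraries, at 74.7% and 69.3%.

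Of the 9 genes with at least 100 counts over 2 or more transcripts, 3 changed their main transcript between libraries: HIST1H2AC, HIST1H2BJ and HIST1H4H. HIST1H2BJ had 6, 12 and 24 counts with siRNA-NC and 17, 15 and 15 with si-AC010789.1 on its coding part (ENST00000339812), and 23, 11 and 47 against 36, 16 and 59 on a spliced form with a poly(A) signal (ENST00000607124). HIST1H4H had 11, 30 and 36 counts against 21, 25 and 27 on ENST00000634956, and 19, 4 and 27 against 1, 23 and 7 on ENST00000635491.

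**Figure D5:**
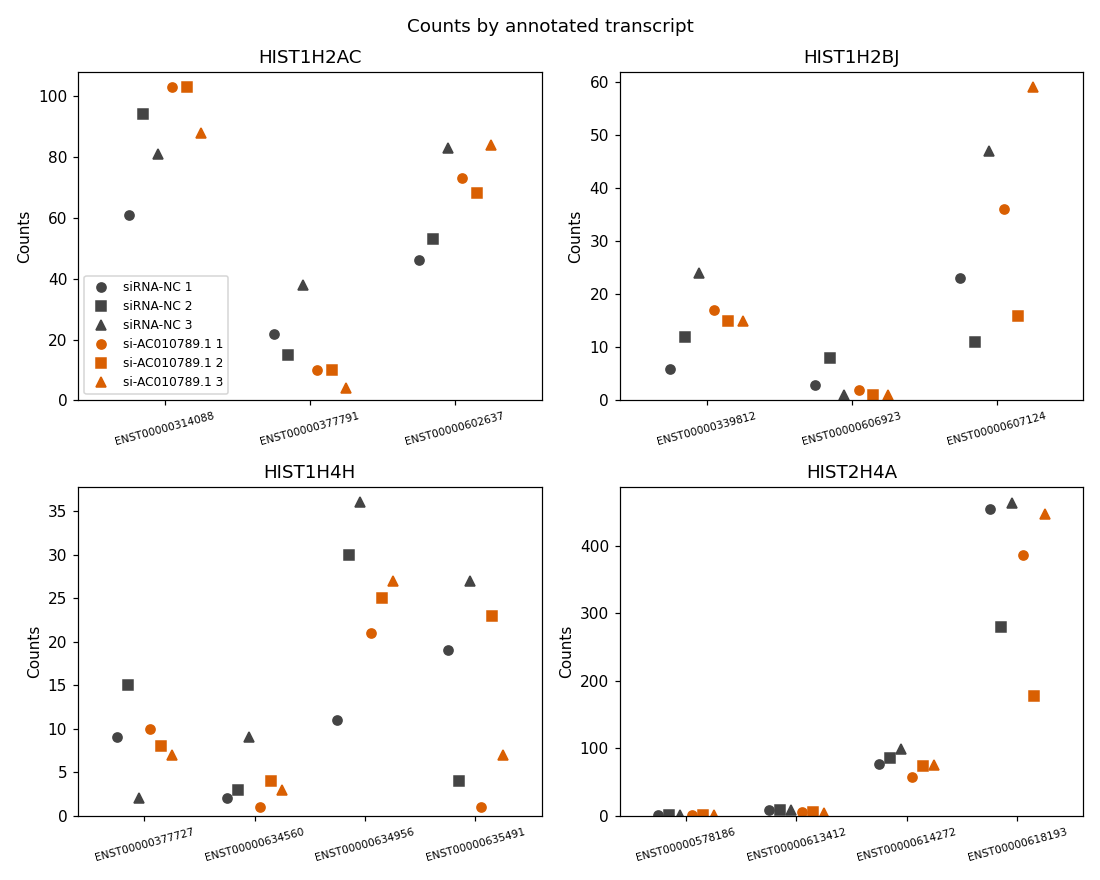
Counts (vertical axis, from 0) of each annotated transcript of HIST1H2AC, HIST1H2BJ, HIST1H4H and HIST2H4A in the 6 libraries (grey siRNA-NC, orange si-AC010789.1). ENST00000377791 of HIST1H2AC is lower in every si-AC010789.1 library (4 to 10 counts) than in any siRNA-NC library (15 to 38).

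The genes around the histone genes were taken as lists. Of 39 measured genes of histone transcription and mRNA end processing, 0 passed the adjusted threshold in either direction in edgeR, 5 had an unadjusted p under 0.05 (17.2% of all genes did), and the median log2 fold change was 0.00. SLBP, the stem-loop binding protein, was at 70.1, 63.6 and 68.4 CPM with siRNA-NC and 60.5, 84.3 and 67.6 CPM with si-AC010789.1, or a log2 fold change of 0.07 (95% interval -0.23 to 0.38). NPAT was at 51.4, 52.6 and 61.4 CPM with siRNA-NC and 70.4, 49.4 and 59.4 CPM with si-AC010789.1, or a log2 fold change of 0.11 (95% interval -0.23 to 0.45). Both overlapped between the groups.

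In the same list, CCNA2, the cyclin of S phase and G2, was at 121, 124 and 126 CPM with siRNA-NC and 104, 96.3 and 101 CPM with si-AC010789.1, with groups apart and a log2 fold change of -0.30 (SE 0.05, edgeR adjusted p = 0.064). The transcription factor YY1 was at 177, 227 and 174 CPM with siRNA-NC and 322, 197 and 205 CPM with si-AC010789.1 (log2 fold change 0.32, edgeR adjusted p = 0.489). Neither passed the adjusted threshold.

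Of 57 measured genes of DNA replication in S phase, 0 passed the adjusted threshold, 15 had an unadjusted p under 0.05, and 16 were higher and 9 lower with groups apart. Over all genes these shares were 17.2%, 12.2% and 12.9%, and none of the differences from them was tested. Their median log2 fold change was 0.05. TK1, the thymidine kinase of S phase, was at 47.4, 54.4 and 48.9 CPM with siRNA-NC and 61.2, 74.1 and 76.6 CPM with si-AC010789.1 (log2 fold change 0.49, SE 0.11, edgeR adjusted p = 0.097). GINS2, a subunit of the replicative helicase complex, was at 49.9, 45.3 and 42.2 CPM with siRNA-NC and 60.1, 60.6 and 59.4 CPM with si-AC010789.1 (log2 fold change 0.39, SE 0.08, edgeR adjusted p = 0.086). Both had groups apart, and neither passed the adjusted threshold. No tested histone gene had groups apart. All had lower means than TK1 and GINS2, at most 40.3 CPM (HIST1H2BK). The part of the level in this was not tested. The lowest log2 fold change of this list was -0.30, that of CCNA2 itself, which is in both lists.

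Of 33 histone chaperones and importers, 0 passed the adjusted threshold, 9 had an unadjusted p under 0.05 (17.2% of all genes did), and the median log2 fold change was 0.03. The importin IPO4 was at 49.5, 29.9 and 44.7 CPM with siRNA-NC and 15.3, 32.6 and 21.5 CPM with si-AC010789.1 (log2 fold change -0.84, edgeR adjusted p = 0.242), with groups that overlapped. RBBP7, a histone-binding subunit of several chromatin complexes, was at 159, 158 and 142 CPM with siRNA-NC and 239, 221 and 164 CPM with si-AC010789.1 (log2 fold change 0.44, edgeR adjusted p = 0.192), with groups apart.

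Genes listed as replication-independent histones, most of which give polyadenylated mRNAs outside S phase too, were the nearest comparison. Of 11 measured, 0 passed the adjusted threshold, 5 had an unadjusted p under 0.05, and 3 were higher and 2 lower with groups apart, with a median log2 fold change of 0.05. The shares over all genes were again 17.2%, 12.2% and 12.9%. H3F3B, which encodes histone H3.3, was at 215, 205 and 185 CPM with siRNA-NC and 234, 258 and 255 CPM with si-AC010789.1 (log2 fold change 0.30, SE 0.07, edgeR adjusted p = 0.11). CENPA, the centromeric H3, was at 30.0, 24.9 and 25.5 CPM with siRNA-NC and 32.5, 33.1 and 30.2 CPM with si-AC010789.1 (log2 fold change 0.25, edgeR adjusted p = 0.261).

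By the mean over the 6 libraries, per kb of transcript, H2AFZ (241), H1F0 (155), H3F3B (131) and H2AFV (117) stood above every member. H2AFZ was at 255 ± 32.2 CPM per kb with siRNA-NC and 227 ± 11.02 with si-AC010789.1, and the linker histone H1F0 at 161 ± 2.81 and 149 ± 0.803 (SD, n = 3 each). The 57 members summed to 313 ± 27.7 and 330.1 ± 27.5 CPM per kb, of which HIST1H2BK alone had a mean of 106 CPM per kb over all libraries.

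Of the marker lists, 0 of 3 tested colorectal epithelial markers and 0 of 5 tested markers of other cell types passed the adjusted threshold, with median log2 fold changes of 0.08 and 0.04. EPCAM and KRT8 had log2 fold changes of 0.45 and -0.43, with groups that overlapped. CDH1, which was not tested, was higher in every si-AC010789.1 library, at 0.872 to 1.05 CPM against 0.674 to 0.708 CPM. CD68 and COL3A1, the other-cell markers with the largest changes, had log2 fold changes of -1.03 and -0.57 with groups apart (edgeR adjusted p = 0.181 and 0.31). The part of these differences in the histone values was not tested.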

How the data were processed

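RNA of 6 libraries, 3 siRNA-NC and 3 si-AC010789.1, was sequenced as read pairs from poly(A)-selected TruSeq libraries. The authors deposited whole-number counts per Ensembl transcript, not normalized. The submitters' processing notes name CASAVA 1.8, TopHat2 2.0.6 and the builds GRCh38 and mm10. The counting program is not given in the sources used here.

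Of 98886 transcripts, 98803 matched GENCODE release 29 (GRCh38) by identifier, holding over 99.9% of the counts, and were summed to 18768 genes; 83 transcripts without a match were not used. Genes were filtered with filterByExpr (min.count 10, min.total.count 15), scaled by TMM and tested with edgeR 4.0.16 (quasi-likelihood, R 4.3.3), with Benjamini-Hochberg adjustment over all genes. SE and 95% intervals were derived from the F statistic. The script was tested on simulated data. Alternatives were DESeq2 1.42.0, RLE size factors, library totals, other filters, a replicate block and the omission of each library. The transcript fit was added after the data were seen. The libraries held 11277222 to 13443866 counts, and precision was taken from the spread between libraries.

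Named were all tested members, with values per library for those of adjusted p under 0.05, the 5 largest and 5 smallest changes, the 10 of highest mean CPM and any with groups apart; of the lists, SLBP, NPAT and the 2 with the largest absolute change. The members and lists were chosen with earlier results of these data known.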

Additional observations from a re-analysis of the deposited data

How the results depend on the processing

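Under DESeq2, RLE size factors, library totals alone, either other filter, the replicate block and the omission of each library, the counts of histone genes past the adjusted threshold and at the study criteria were 0, as at first, and the median log2 fold change stayed between 0.01 and 0.10. Leaving out 1 library gave 1 to 7 histone genes with groups that did not overlap; the highest came without si-AC010789.1 replicate 2, followed by 4 without siRNA-NC replicate 1. In these fits 2.86% to 20% of the histone genes and 33.9% to 35.6% of all genes had such groups. Without a filter there was 1, HIST1H3C, whose counts were 2, 3 and 0 with siRNA-NC and 3, 8 and 4 with si-AC010789.1. The log2 ratio of the summed level ranged from -0.06 to 0.08 with 1 library left out, the difference in the share of counts not ending at the stem-loop from -0.71 to -0.19 percentage points, and with transcripts of more than 1 exon as the long form that difference was -1.36 points; the cause was not tested. Of the 19 genes named with values, 12 kept their direction under every alternative that held them (HIST1H3B fell under the filter of a mean of 1 CPM) and 0 passed the threshold under any. Other values moved by over 1.5 times with 1 library left out: HIST1H1C (-0.072 to -0.013), HIST1H2AC (0.13 to 0.34), HIST1H2AI (-0.56 to -0.14), HIST1H2BD (0.029 to 0.25), HIST1H2BF (0.084 to 0.48), HIST1H2BJ (0.052 to 0.79), HIST1H2BK (0.049 to 0.23), HIST1H2BO (0.32 to 1.27), HIST1H4H (-0.44 to -0.012), HIST1H4J (0.016 to 0.53) and HIST2H2AA4 (0.046 to 0.34). With 1 library left out, the log2 fold change reversed for 7 genes. Without si-AC010789.1 replicate 1 this held for HIST1H2AG (range over the libraries left out -0.031 to 0.13), HIST1H2AK (-0.56 to 0.026) and HIST2H4B (-0.10 to 0.044). Without si-AC010789.1 replicate 2 it held for HIST2H2BE (-0.043 to 0.10), HIST2H3A (-0.51 to 0.22) and HIST2H4A (-0.41 to 0.051), and without siRNA-NC replicate 1 for HIST1H2BH (-0.24 to 0.035). The log2 fold change of ENST00000377791 ranged from -1.85 to -1.20 with 1 library left out, and its adjusted p ranged from 0.431 (DESeq2) to 0.899 (edgeR without si-AC010789.1 replicate 2) over the alternatives. With 1 library left out 3 to 8 histone transcripts had groups apart (7.5% to 18.6%, against 23.2% to 23.9% of all transcripts), and DESeq2 and RLE gave 2. The difference in the coding-part share became 0.72 points without HIST1H2BK, from 1.83. That in the share past the stem-loop became -2.58 points without HIST2H4A, from -3.33. With 1 library left out, the coding-part difference ranged from 1.49 to 2.02 points. The difference past the stem-loop then ranged from -4.00 to -2.23 points.

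Libraries with the same number correlated by 0.0988, 0.00489 and 0.00786 in their deviations from the group means, and while the study describes its repeats as different cell generations, no source used here says that equal numbers in the 2 groups share one, so the numbers were not taken to pair the samples. Within each of the 3 numbers, 7 of the 34 histone genes (20.6%) were higher and 2 (5.88%) lower with si-AC010789.1, against 20.7% and 21.1% of all genes, a count added after seeing the data. With the replicate block, 0 histone genes passed either threshold, the median log2 fold change was 0.03 and the log2 ratio of the summed level was 0.02; over all genes, the calls at an adjusted p of 0.05 went from 130 to 0. DESeq2 called 522 of all genes and the fits without 1 library 12 to 37. Without siRNA-NC replicate 3, 1 histone gene had an unadjusted p under 0.05 in edgeR.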
